A study of Mus musculus with 10 samples.

Results

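Soluble guanylate cyclase is the intracellular receptor of nitric oxide, and 5 genes around it were followed in mouse regulatory T (Treg) cells: Gucy1a1, Gucy1b1 and Gucy1a2, which encode its subunits, Prkg1, which encodes the cyclic GMP-dependent protein kinase type I, and Pde5a, which encodes a phosphodiesterase specific for cyclic GMP. They were picked by name as nitric oxide receptor subunits and cyclic GMP effectors, with the difference between LKB1-deficient and wild-type (WT) arrays in view, because Gucy1a1 had the lowest LKB1-deficient minus WT difference of all 22180 genes measured. All 5 were measured, each by 1 probe set with a single gene name. Their group differences are therefore given as descriptions, with no test.

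Treg cells are CD4 T cells that hold other immune cells in check under the control of Foxp3, and here they were sorted from mice whose bone marrow had been replaced by a mixture of donor marrows. There were 5 WT samples and 5 samples of cells deficient in LKB1, the protein kinase encoded by Stk11, and each was hybridised to its own single-channel array. Both kinds of sample came from such mixed chimeras and were lysed after sorting with no culture step. The deleting Cre and its promoter, the strain, the age of the mice and the other donor marrow are not stated, nor is it stated whether each array holds cells of another mouse. The p-values below therefore rest on the spread among these arrays alone, and that spread may be technical.

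In textbook terms, an alpha and a beta subunit pair to form the cyclase, and nitric oxide binding to the haem group carried by the beta subunit switches on synthesis of cyclic GMP. Cyclic GMP activates protein kinase G, opens cyclic nucleotide-gated channels and sets the activity of some phosphodiesterases, and it is removed by hydrolysis or by export from the cell. The pathway is best known from the relaxation of vascular smooth muscle and the restraint of platelets, whose cells carry the same subunits.

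The promoters of the subunit genes that differed between the groups are shown because Gucy1b1 and Gucy1a1 lie next to each other, with no other measured protein-coding gene between them, and both were lower on LKB1-deficient arrays. Each window runs from 250 bases before to 50 bases after an annotated start in RefSeq on GRCm38.p6, 5′ to 3′ on the gene's strand. RefSeq held 7 such windows for the 5 genes, and the 3 shown lie at chr3:82145601-82145900 and chr3:82145024-82145323 (Gucy1a1, first and second start) and at chr3:82074662-82074961 (Gucy1b1), all on the minus strand. Capitals mark matches, on either strand, to TGACG (the core of the cyclic AMP response element), CACGTG (an E-box), GGGCGG (a GC box), CCAAT and TATAAA.
Gucy1a1 first start: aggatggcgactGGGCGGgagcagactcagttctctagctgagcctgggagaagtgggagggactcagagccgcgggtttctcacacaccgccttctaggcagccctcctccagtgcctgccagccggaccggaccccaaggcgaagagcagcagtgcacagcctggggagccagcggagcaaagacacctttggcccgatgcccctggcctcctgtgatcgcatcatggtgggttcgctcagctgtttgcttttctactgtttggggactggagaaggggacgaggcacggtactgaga
Gucy1a1 second start: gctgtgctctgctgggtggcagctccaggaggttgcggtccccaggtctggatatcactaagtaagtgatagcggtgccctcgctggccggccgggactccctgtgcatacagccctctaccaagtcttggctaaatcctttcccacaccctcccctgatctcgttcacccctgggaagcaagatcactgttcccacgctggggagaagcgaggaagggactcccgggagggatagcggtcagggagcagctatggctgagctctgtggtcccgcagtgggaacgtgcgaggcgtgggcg
Gucy1b1: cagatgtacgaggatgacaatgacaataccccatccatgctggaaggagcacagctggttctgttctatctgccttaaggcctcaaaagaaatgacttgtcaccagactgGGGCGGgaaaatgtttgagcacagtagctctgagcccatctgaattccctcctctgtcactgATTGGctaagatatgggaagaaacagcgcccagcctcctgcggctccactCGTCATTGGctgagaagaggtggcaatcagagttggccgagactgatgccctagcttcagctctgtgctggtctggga

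The first Gucy1a1 window held only a GC box, 238 bases before the start, and the second held none of the 5 motifs. The Gucy1b1 window held a GC box 140 bases before the start, CCAAT matches on the minus strand at 78 and 24 bases before it, and a TGACG match on the minus strand at 28 bases before it that overlaps the nearer CCAAT match. Of the 32851 windows of this length in the table, 20.8% held TGACG, 7.2% CACGTG, 35.7% GGGCGG, 37.4% CCAAT and 13.6% TATAAA, and each match is to be read against these shares. In the other windows, Gucy1a2 held a CACGTG and a TGACG that overlap, a GC box and 2 CCAAT matches, Pde5a held a GC box only, and the windows of Prkg1 held a GC box each, the first also a CCAAT match. The GC content was 62.3% in both Gucy1a1 windows and 52.3% in that of Gucy1b1, against a median of 52.7% over all windows. A match is a string of letters and not a measured binding site.

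Values are log2 signals, and 1 unit is a 2-fold difference. Array medians over all probe sets were 4.83 to 4.86 on WT arrays and 4.88 to 4.94 on LKB1-deficient arrays, and no detection calls were used here, so a level near or below these medians cannot be told from background. Stk11 itself was at 6.78 ± 0.15 (SD, n = 5) on WT arrays and 6.42 ± 0.37 (SD, n = 5) on LKB1-deficient arrays, and limma gave an adjusted p of 0.335 (difference -0.36, SE 0.16). It passed in 2 of 23 alternative fits, at -0.79 (adjusted p = 0.012) once the mean levels of macrophage and B cell markers entered the fit and at -0.75 (adjusted p = 0.0178) when LKB1-deficient arrays 1, 4 and 5 were left out. Those arrays had the highest Stk11 of their group (6.57, 6.71 and 6.78, against 6.01 and 6.05), so the gap to WT necessarily widened without them. The WT range of 6.61 to 6.95 included LKB1-deficient arrays 4 and 5 (6.71 and 6.78), so what follows refers to the arrays labelled LKB1-deficient. The probe set may not cover the deleted part of the gene. Treg defining transcripts (7 of 7 measured, among them Foxp3 at 11.09 on WT and 11.03 on LKB1-deficient arrays and Il2rb, an interleukin 2 receptor chain, at 11.56 and 11.38) had list means of 10.39 to 10.47 on WT arrays and 9.43 to 10.71 on LKB1-deficient arrays, where array 1 was the lowest.

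Gucy1a1, the alpha-1 subunit (probe set 17406221), was at 6.63, 6.74, 7.07, 7.18 and 7.13 on WT arrays 1 to 5. On LKB1-deficient arrays 1 to 5 it was at 5.43, 4.89, 5.00, 4.87 and 5.11. The groups did not overlap: the highest LKB1-deficient array, array 1, lay more than 1 unit below the lowest WT array, and the other 4 lay near the array median. The means were 6.95 ± 0.25 (SD, n = 5) and 5.06 ± 0.23 (SD, n = 5), a log2 difference of -1.89 (SE 0.14), or 3.72-fold lower. Because the lower values reach the level that cannot be told from background, the fold may understate the change.

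Gucy1b1, the haem-carrying beta-1 subunit (probe set 17406205), was at 4.61, 4.61, 5.11, 4.94 and 4.77 on WT arrays 1 to 5 and at 4.18, 4.02, 4.36, 4.10 and 4.39 on LKB1-deficient arrays 1 to 5. Again no LKB1-deficient array reached the lowest WT array, although the gap was small. The means were 4.81 ± 0.22 (SD, n = 5) and 4.21 ± 0.16 (SD, n = 5), a difference of -0.60 (SE 0.12), or 1.51-fold lower. The WT values themselves straddled the array median, so on neither group of arrays can this gene be told from background by its level alone. In these sorted samples, fewer cells carrying a transcript and less transcript per cell cannot be told apart.

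Gucy1a2, the alpha-2 subunit, which can take the place of alpha-1 in the cyclase (probe set 17514399), was at 4.32, 3.97, 4.20, 4.16 and 4.23 on WT arrays and at 4.32, 4.21, 4.29, 4.23 and 4.05 on LKB1-deficient arrays. The groups overlapped almost completely, at 4.18 ± 0.13 (SD, n = 5) and 4.22 ± 0.10 (SD, n = 5), with a difference of 0.04 (SE 0.09). All 10 values lay below the array medians, so the data do not show whether the alpha-2 subunit is transcribed in these cells.

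Prkg1, the kinase activated by cyclic GMP (probe set 17363903), was at 3.48, 3.73, 3.47, 3.39 and 3.26 on WT arrays and at 3.46, 3.33, 3.48, 3.83 and 3.35 on LKB1-deficient arrays. The groups overlapped, with means of 3.47 ± 0.18 (SD, n = 5) and 3.49 ± 0.20 (SD, n = 5) and a difference of 0.02 (SE 0.12). LKB1-deficient array 4 was the highest of all 10. Pde5a, which hydrolyses cyclic GMP (probe set 17402321), was at 3.74, 3.88, 3.76, 3.65 and 3.48 on WT arrays and at 4.12, 3.92, 3.75, 3.69 and 4.30 on LKB1-deficient arrays. LKB1-deficient arrays 1, 2 and 5 were above every WT array and arrays 3 and 4 were among them, with means of 3.70 ± 0.15 (SD, n = 5) and 3.96 ± 0.25 (SD, n = 5) and a difference of 0.25 (SE 0.13). Both probe sets were below the array medians on all 10 arrays.

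**Figure D1:**
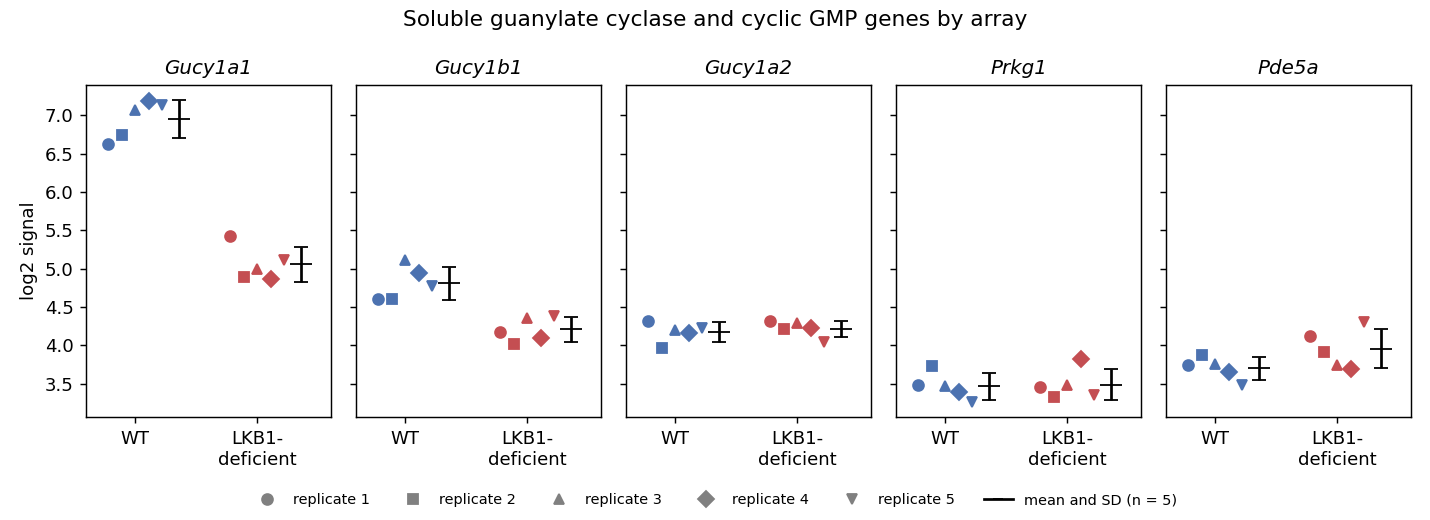
Log2 signal of each of the 5 genes on every array (vertical axis), WT in blue and LKB1-deficient in red, with a marker shape per replicate number and the mean and SD of 5 arrays beside each group. Gucy1a1 separates the groups by more than 1 unit and Gucy1b1 by a small gap, while Gucy1a2, Prkg1 and Pde5a overlap.

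Thus 2 of the 5 genes, both subunits, had lower LKB1-deficient values with no overlap between the groups, and 0 had higher ones. Over all 22180 genes 3.71% were lower without overlap and 0.996% were higher. Since the genes were chosen with this contrast in view, nothing is read from the count.

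The samples also fall into runs by the numeric codes in their descriptions, replicates 1 to 3 of both groups in the first and replicates 4 and 5 in the second. The labels do not explain the codes. Gucy1a1 differed by -1.71 in the first run and by -2.17 in the second, and its WT mean was 6.82 in the first and 7.16 in the second. Gucy1b1 differed by -0.59 and -0.61, so both subunits were lower within each run. Prkg1 differed by -0.14 in the first run and 0.27 in the second, Gucy1a2 by 0.11 and -0.06, and Pde5a by 0.14 and 0.43. The difference between the runs was not tested.

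Markers of some other cells were higher on some or all LKB1-deficient arrays than on WT arrays. The mean of the 12 macrophage and dendritic markers was 6.70 to 7.11 on WT arrays and 6.89 to 9.69 on LKB1-deficient arrays, where arrays 4 and 5 stood at 9.58 and 9.69. Of the 12, 0 passed in limma and 7 were higher at an unadjusted p under 0.05, where 5.19% of all genes were higher and 8.8% lower. Lyz2, which encodes lysozyme and was the brightest, was at 9.09 and 10.26. The 7 measured B and plasma cell markers were at 5.76 to 6.10 on WT arrays. LKB1-deficient arrays 1, 4 and 5 stood at 7.47, 7.20 and 7.50 for this list, and arrays 2 and 3 at 6.05 and 6.04. Of the 7, 0 passed in limma and 4 were higher at an unadjusted p under 0.05, and H2-Aa, an antigen-presenting chain, was at 8.37 and 9.67. The 7 NK and innate lymphoid markers were at 4.51 to 4.63 and 4.67 to 5.71. Of the 7, 1 passed in limma and 3 were higher at an unadjusted p under 0.05. Klrd1, an NK receptor chain, passed (1.53, limma adjusted p = 0.017), and Prf1, perforin, was at 6.59 and 7.15. Ncr1 (0.11), Klrb1c (0.09) and Klre1 (0.12), further genes of this list, did not pass, and their group means lay below the array medians. The T cell identity markers (8 of 9 measured) were at 11.04 to 11.09 and 10.83 to 11.10, with Cd3e, a chain of the T cell receptor complex, at 11.92 and 11.76. Of the 8, 0 passed in limma and 3 were lower at an unadjusted p under 0.05. These were Cd3d (-0.21, adjusted p = 0.285) and Cd3g (-0.26, adjusted p = 0.194), which encode further chains of that complex, and Zap70 (-0.28, adjusted p = 0.188), a kinase that acts downstream of it. The groups did not overlap for Cd3d and Zap70. The erythroid markers (3 of 8 measured) were at 4.97 to 5.08 and 4.99 to 5.33, with Slc4a1, the red cell anion exchanger, at 5.35 and 5.49.

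Gucy1a1 was at 4.89 and 5.00 on LKB1-deficient arrays 2 and 3, where the B cell list lay within the WT range and the macrophage list was at 6.89 and 7.12. The NK list was at 4.67 and 4.93 there, above the WT range of 4.51 to 4.63. The megakaryocyte and platelet list was at 5.40 and 5.55, above the WT range of 5.21 to 5.36. With LKB1-deficient arrays 2 and 3 against all 5 WT arrays the difference was -2.01 (SE 0.16) for Gucy1a1 and -0.62 (SE 0.16) for Gucy1b1. With the macrophage and B cell means as covariates it was -2.05 (SE 0.14) and -0.67 (SE 0.17). Pde5a went from 0.25 to 0.13 without LKB1-deficient arrays 1, 4 and 5 and to 0.11 with the covariates, and Prkg1 from 0.02 to -0.06 and -0.02.

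Cells known to carry the cyclase were looked at in the same way. Of the 9 measured megakaryocyte and platelet markers, Gp9 (0.95, adjusted p = 0.0204), a platelet glycoprotein, and Itgb3 (0.70, adjusted p = 0.017), the integrin beta-3 chain, rose in the limma test and the other 7 did not pass. At an unadjusted p under 0.05 in limma, 4 of the 9 were higher, against 5.19% of all genes. On LKB1-deficient arrays 1 to 5 Gp9 was at 6.55, 5.94, 5.93, 6.44 and 5.65. Itgb3 was at 8.21, 8.04, 8.14, 7.72 and 7.73, lowest on arrays 4 and 5. The list mean was 5.21 to 5.36 on WT arrays and 5.40 to 6.28 on LKB1-deficient arrays, where arrays 4 and 5 stood at 6.28 and 6.16. Pf4, platelet factor 4, was at 5.29 to 5.46 on WT arrays and at 4.75, 5.18, 5.34, 6.68 and 6.44 on LKB1-deficient arrays 1 to 5. Ppbp, a platelet chemokine, was at 6.63, 6.14, 6.53, 8.97 and 8.89 on these, and at 5.83 to 6.45 on WT arrays. Clec1b, a platelet receptor, was at 4.69, 4.42, 4.45, 6.72 and 6.86, and at 4.24 to 4.75 on WT arrays. Itga2b, Gp6, Treml1 and Tubb1 varied by less than 1 unit among LKB1-deficient arrays. Of the 11 smooth muscle, pericyte and endothelial markers 0 passed in limma, also at an unadjusted p under 0.05, and their mean was 5.08 to 5.27 and 5.07 to 5.34. Pecam1, an adhesion molecule, was the brightest of them, at 9.19 and 9.22. Myh11, the smooth muscle myosin heavy chain, was at 4.83 and 4.76, and Pdgfrb, a pericyte receptor, at 4.27 in both groups. The means of Myh11 and Pdgfrb were at or below the array medians. The covariate fit above used only the macrophage and B cell means, and the platelet, smooth muscle and NK lists entered no fit. The part of any of these cells in the values of the 5 genes was not tested.

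Outside the 5 genes, Pde3b rose and Adh5 fell among the wider cyclic GMP pathway. Of 78 measured genes in 7 lists arranged by role, 1 was higher and 1 lower at an adjusted p under 0.05 in limma, against 0.234% higher and 0.83% lower over all genes. In both directions together this is 2.56% of the 78 and 1.06% of all genes. The median difference over the 78 was 0.05, and 0.003 over all genes. Of the 78 estimates 25 were negative, against 10910 of all 22180. The array medians themselves were higher on LKB1-deficient arrays (4.88 to 4.94) than on WT arrays (4.83 to 4.86). The part of that offset in the differences of the 78 was not tested, so no shift of the pathway is read from them. At an unadjusted p under 0.05 there were 8 higher (10.3%) and 4 lower genes (5.13%), against 5.19% and 8.8% of all genes, and the counts at that p in each list below are to be set against the same shares.

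Genes for making nitric oxide and its cofactor tetrahydrobiopterin did not pass (0 of 14 in limma, 2 higher at an unadjusted p under 0.05, differences from -0.44 to 0.32). Nos1, the neuronal synthase, was nearest, at 4.55, 4.57, 4.64, 4.44 and 4.46 on WT arrays and at 4.71, 4.64, 4.93, 4.89 and 5.08 on LKB1-deficient arrays (0.32, SE 0.10, limma adjusted p = 0.165). These values lie around the array median. Nos2, the inducible synthase, differed by 0.09 (SE 0.16) and Nos3, the endothelial synthase, by 0.04 (SE 0.08), and neither passed. Ddah1, which degrades an endogenous inhibitor of the synthases, was at 0.24 (adjusted p = 0.328), and Nosip, a synthase-interacting protein, at -0.21 (adjusted p = 0.391). The group means of Nos2, Nos3 and Ddah1 lay below the array medians.

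Of 5 measured genes grouped as the remaining cyclase subunit and support of its haem or of nitrosylated thiols, Adh5 fell. Adh5 encodes the reductase of S-nitrosoglutathione, a carrier of nitric oxide, and it was at 8.11, 7.91, 7.87, 8.01 and 7.93 on WT arrays and at 7.22, 7.64, 7.52, 7.40 and 7.63 on LKB1-deficient arrays. Every LKB1-deficient array was below every WT array, a difference of -0.49 (SE 0.10, limma adjusted p = 0.0434). The call ended in 8 of 10 fits that each left out 1 array, where the adjusted p reached 0.119, and with the replicate number as a block (0.148). It also ended without LKB1-deficient arrays 1, 4 and 5 (-0.39, adjusted p of 0.129). The covariate fit had Adh5 at -0.40 (adjusted p of 0.176). Gucy1b2, a beta-2 subunit gene, was at 3.93 ± 0.10 (SD, n = 5) and 4.06 ± 0.19 (SD, n = 5) and did not pass (0.13, adjusted p = 0.627). Cyb5r3, which reduces the cyclase haem, differed by 0.01 (SE 0.12), the chaperone gene Hsp90aa1 by -0.02 (SE 0.12), and Txn1, thioredoxin, by -0.02 (adjusted p = 0.956).

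The membrane-bound guanylyl cyclases are the second source of cyclic GMP. They were listed with their calcium-dependent activators and peptide ligands, a ligand receptor without a cyclase domain, and proteases. Of these 17 genes 0 passed the threshold in limma and 2 were higher at an unadjusted p under 0.05. Their differences ran from -0.12 to 0.37. Npr1, the receptor of atrial natriuretic peptide, was at 4.83 ± 0.09 (SD, n = 5) and 5.02 ± 0.20 (SD, n = 5) (0.19, limma adjusted p = 0.465). Guca1a, a guanylyl cyclase activator of photoreceptors, was at 0.37 (adjusted p = 0.349), and Nppb, the precursor of brain natriuretic peptide, at 0.22 (adjusted p = 0.356). The group means of Guca1a and Nppb lay below the array medians.

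Among other effectors, Prkg2, the type II kinase, was at 2.98 ± 0.17 (SD, n = 5) and 2.97 ± 0.12 (SD, n = 5), and none of the 6 cyclic nucleotide-gated channel genes passed in limma, nor at an unadjusted p under 0.05. Cnga2, Cngb3 and Cnga3, which encode channel subunits, had the smallest p of that list, with differences of 0.15, 0.07 and 0.07. All the channel genes but Cngb1 had group means below the array medians.

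Of 17 measured genes for substrates and partners of protein kinase G, 0 passed the threshold in limma, and 2 were higher and 1 lower at an unadjusted p under 0.05. Rgs2, a regulator of G protein signalling that the kinase phosphorylates, was nearest. It was at 9.80, 9.47, 9.87, 9.30 and 9.27 on WT arrays and at 10.17, 10.12, 9.90, 10.52 and 10.54 on LKB1-deficient arrays. All LKB1-deficient values were above all WT values, array 3 by little, with a difference of 0.71 (SE 0.16, limma adjusted p = 0.0542). It passed in 6 of 23 alternative fits, and its adjusted p ran from 0.00602 to 0.486. Within the second run alone its difference was 1.24, and its smallest difference in any setting was 0.35, within the first run alone. It was at 0.44 (limma adjusted p = 0.27) with the covariates. Without LKB1-deficient arrays 1, 4 and 5, its highest values, it was necessarily lower, at 0.47 (limma adjusted p = 0.264). Arrays 4 and 5, the highest for Rgs2, also had the highest macrophage list means.

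Gtf2ird1, a transcription factor related to the kinase-binding factor TFII-I, was at 4.68, 4.92, 4.92, 5.01 and 4.76 on WT arrays and at 5.07, 5.39, 5.21, 5.67 and 5.68 on LKB1-deficient arrays. Its groups did not overlap either (0.55, SE 0.13, limma adjusted p = 0.0706), and it passed in 4 of 23 alternative fits. It was at 0.42 (limma adjusted p = 0.185) with the covariates and at 0.44 (limma adjusted p = 0.125) without LKB1-deficient arrays 1, 4 and 5. Vasp, the actin-regulating protein whose phosphorylation is the usual readout of protein kinase G, was at 9.35 ± 0.09 (SD, n = 5) and 9.05 ± 0.15 (SD, n = 5) and did not pass (-0.30, limma adjusted p = 0.163). The difference of Vasp was -0.13 with the covariates and -0.14 without LKB1-deficient arrays 1, 4 and 5. Of the members of this list with differences close to 0, Gtf2i was at 8.69 and 8.70, Zyx, a focal adhesion protein, at 9.53 and 9.51, and Rhoa, a small GTPase, at 12.20 and 12.15.

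Of 15 other phosphodiesterase genes whose enzymes act on cyclic GMP or are regulated by it, Pde3b rose. Pde3b encodes an enzyme that hydrolyses cyclic AMP and is inhibited by cyclic GMP. It was at 4.90 ± 0.14 (SD, n = 5) on WT and 6.42 ± 0.54 (SD, n = 5) on LKB1-deficient arrays, 1.53 higher (SE 0.21, limma adjusted p = 0.00893). It was past the threshold in 22 of 23 alternative fits and missed it within the first run alone (1.47, adjusted p = 0.244). Its highest values, 7.19, 6.59 and 6.47, were on LKB1-deficient arrays 1, 4 and 5, which also had the highest B cell list means, and arrays 2 and 3 were at 6.09 and 5.77. The difference was 1.05 (adjusted p = 0.015) with the marker covariates and 1.04 (adjusted p = 0.00767) without those 3 arrays, whose removal had to lower it. Pde2a, which cyclic GMP stimulates, was at 7.13, 7.11, 7.33, 7.73 and 7.26 on WT arrays and at 7.23, 6.94, 7.32, 7.13 and 7.05 on LKB1-deficient arrays, with overlapping groups and a difference of -0.18 (SE 0.13, adjusted p = 0.577). Pde9a, specific for cyclic GMP, was at -0.26 (adjusted p = 0.288) and Pde1b, a calmodulin-dependent enzyme, at 0.33 (adjusted p = 0.326). The group means of Pde9a lay below the array medians.

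Of 3 measured exporters, Abcc4, which carries cyclic nucleotides out of cells, was at 6.70, 6.91, 6.95, 6.70 and 6.77 on WT arrays and at 6.63, 6.49, 6.63, 6.15 and 5.85 on LKB1-deficient arrays. Its groups did not overlap, by a margin of under 0.1 unit, and its difference of -0.46 (SE 0.15) did not pass (limma adjusted p = 0.173). LKB1-deficient arrays 4 and 5, with the highest macrophage list means, had its lowest values. Abcc5, the exporter best known for cyclic GMP, was at 0.16 (adjusted p = 0.512), and Abcc12, a related transporter with group means below the array medians, at 0.09 (adjusted p = 0.746).

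**Figure D2:**
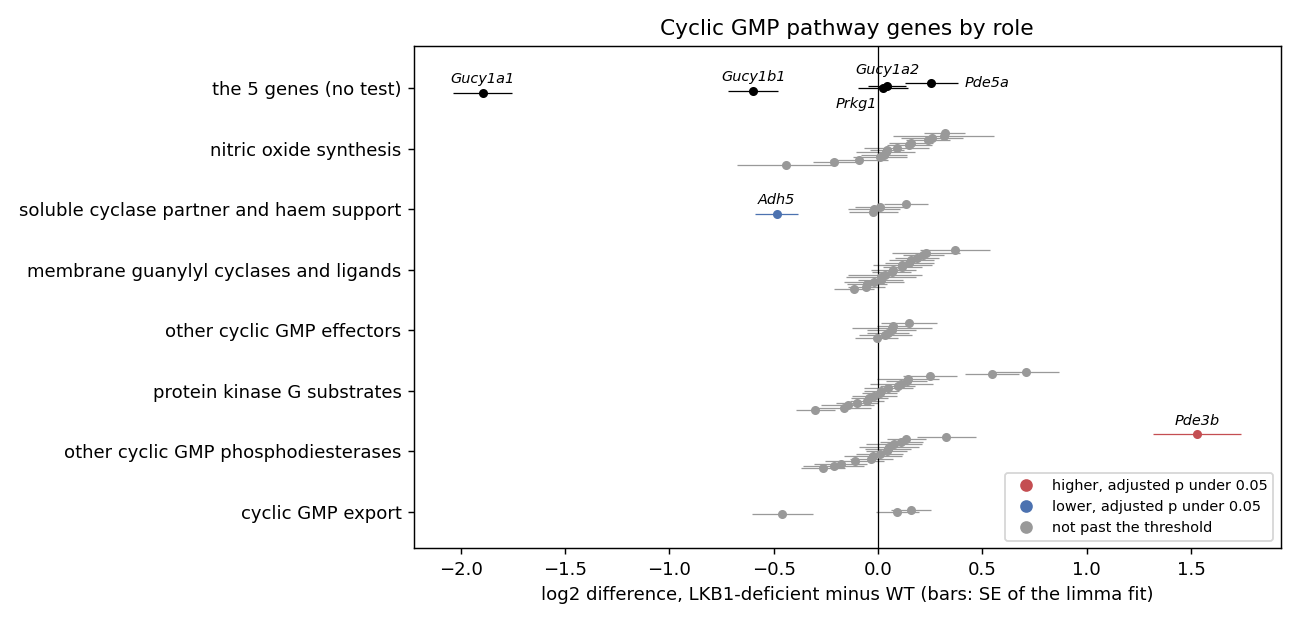
Log2 difference, LKB1-deficient minus WT, with its SE (horizontal axis), for the 5 genes in black and for 78 pathway genes in 7 lists (rows), coloured by whether they passed an adjusted p of 0.05 in limma. Only Pde3b (higher) and Adh5 (lower) are coloured among the 78, and Gucy1a1 lies farthest to the left.

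Because Gucy1b1 and Gucy1a1 adjoin, the nearest 3 measured protein-coding genes on either side were examined. They were taken by their order in the RefSeq table and added after the values of both subunits were known. On the Gucy1b1 side these were Asic5, an ion channel gene (difference -0.05, SE 0.09), Tdo2, tryptophan dioxygenase (-0.09, SE 0.09), and Ctso, cathepsin O (-0.08, SE 0.10). On the Gucy1a1 side they were Map9, a microtubule-associated protein gene (-0.19, SE 0.10), Npy2r, a neuropeptide Y receptor gene (0.19, SE 0.13), and Rbm46, an RNA-binding protein gene (-0.03, SE 0.09). None of the 6 passed the limma test (adjusted p from 0.397 for Map9 to 0.923 for Rbm46), and the groups overlapped for each. Only Ctso, at 8.36 and 8.28, had a level well above the array medians, so it is the neighbour for which a decrease as large as that of Gucy1a1 could have been seen.

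**Figure D3:**
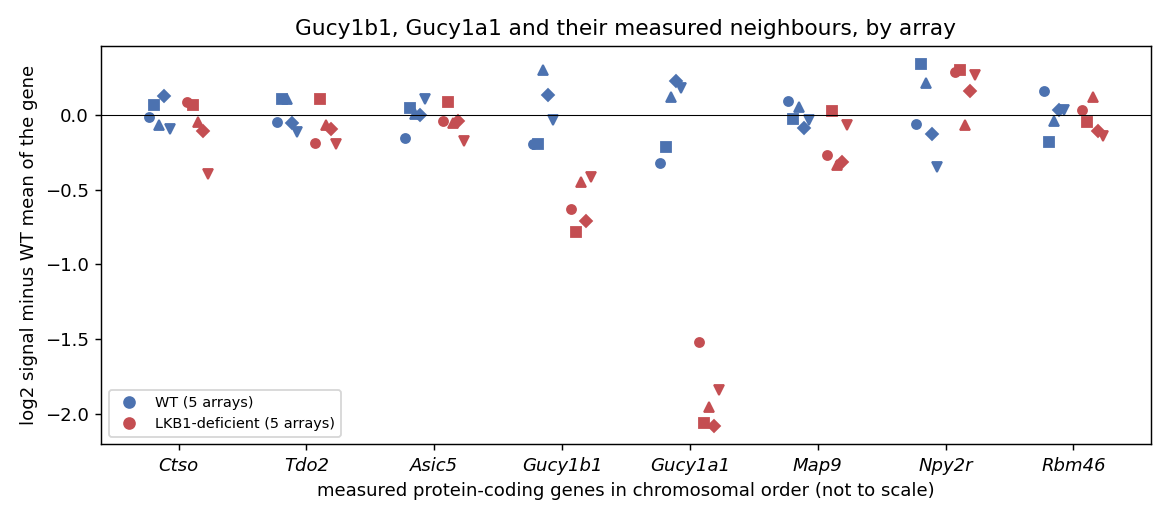
Log2 signal of every array minus the WT mean of the gene (vertical axis) for Gucy1b1, Gucy1a1 and the nearest 3 measured protein-coding genes on either side, in chromosomal order and not to scale. The LKB1-deficient arrays of Gucy1b1 and Gucy1a1 lie below all WT arrays, and those of the 6 neighbours overlap the WT arrays.

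Whether the genes vary together within the groups is a measure that the choice of genes did not use. It was taken as the correlation of deviations from the group mean over 10 arrays, for the 15 pairs among the 5 genes and Stk11, with exact two-sided permutation tests within groups. Gucy1a1 and Gucy1b1 had a Pearson r of 0.57 (exact permutation p = 0.116, adjusted p = 0.717) and a Spearman rho of 0.65 (exact permutation p = 0.0817), and r was 0.68 without the 2 arrays farthest from the median of Gucy1a1. WT arrays 1 and 2 and LKB1-deficient arrays 2 and 4 were below their group mean for both subunits. WT arrays 3 and 4 and LKB1-deficient array 5 were above it for both. WT array 5 and LKB1-deficient arrays 1 and 3 were above it for one subunit and below it for the other.

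Gucy1a1 and Stk11 had an r of 0.46 (exact permutation p = 0.191, adjusted p = 0.717) and a rho of 0.42 (exact permutation p = 0.217), and r was 0.38 without the 2 farthest arrays. With deviations taken within group and run of codes r was 0.87 for this pair (exact permutation, adjusted p = 0.104). It was 0.64 for Gucy1a1 and Gucy1b1 (exact permutation, adjusted p = 0.583). Few arrangements exist in that setting, and 0.104 is the lowest adjusted p that a pair alone could reach. No conclusion is therefore drawn from it. LKB1-deficient arrays 4 and 5, the highest of their group for Stk11, were at 4.87 and 5.11 for Gucy1a1, the lowest and the second highest of the group. Gucy1a1 and Prkg1 had an r of -0.48 (exact permutation p = 0.189, adjusted p = 0.717). None of the 15 pairs passed the adjustment, which was made over the p-values of Pearson's r. The smallest unadjusted p of any pair was 0.116 for Pearson's r and 0.0817 for Spearman's rho.

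**Figure D4:**
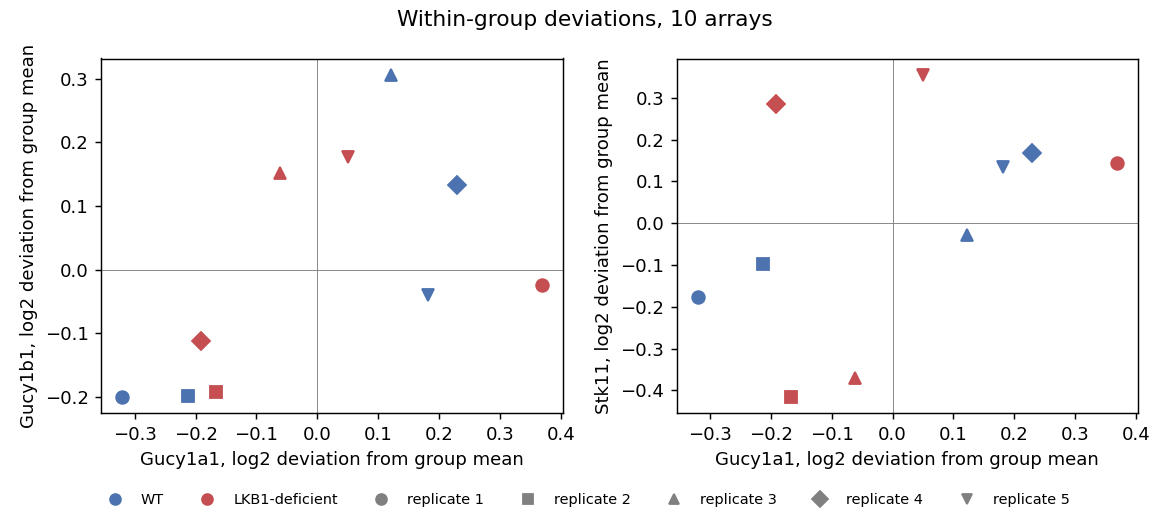
Deviations from the group mean, in log2 units, of Gucy1a1 (horizontal axes) against those of Gucy1b1 (left) and Stk11 (right) on 10 arrays, WT in blue and LKB1-deficient in red, with a marker shape per replicate. The points of the left panel scatter around a rising trend with r = 0.57, and those of the right panel with r = 0.46, neither past the exact permutation test.

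The genes with the pattern most like Gucy1a1 over the 10 arrays, by Pearson r and passing over clone and predicted names, were Mdn1, a ribosome assembly factor gene (0.982), Imp3, a nucleolar RNA-processing gene (0.971), Dkc1, the dyskerin gene (0.970), Ppat, a purine synthesis enzyme gene (0.965), and Egr2, an early growth response factor gene (0.964). Their LKB1-deficient minus WT differences were -0.47 for Mdn1, -0.47 for Imp3, -0.53 for Dkc1, -0.51 for Ppat and -0.50 for Egr2, each smaller than that of Gucy1a1. Gucy1b1 stood at 0.908, 81st in this order, and Gucy1a2, Prkg1 and Pde5a had r of -0.17, -0.18 and -0.53. These correlations mostly carry the difference between the groups. With that difference removed, the 5 most like Gucy1a1 in their deviations were Urad (0.958), Zfp280b (0.949), Klhl18 (0.942), Ceacam10 (0.932) and Lrrc72 (0.930), none of which is among the first 5. Urad, Ceacam10 and Lrrc72 had group means below the array medians, and with 22179 genes ranked over 10 arrays high values occur readily.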

How the data were processed

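RNA of 5 WT and 5 LKB1-deficient samples of sorted Treg cells was measured on single-channel arrays. Nanogram amounts of RNA went through NuGEN amplification, per the labels' protocols, which can distort levels. The authors deposited log2 signals, and the submitters' processing notes name RMA and Partek 6.6; their order, settings and genome build are not given.

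Probe sets with 1 platform gene symbol (23521 of 41345) gave 22180 genes, by the highest-mean probe set where a gene had several. Groups came from sample titles. limma 3.58.1 (R 4.3.3) was fitted to all genes and 10 arrays without covariates, with Benjamini-Hochberg adjustment over all genes. All adjusted p-values of genes come from limma, and those of within-group correlations from exact permutation, adjusted over 15 pairs. The 5 genes, the pathway and marker lists and the alternatives were chosen with earlier results of these data known. Of 83 pathway entries, 78 were measured. The genes named were all 5, Stk11, pathway genes past the threshold or with the 3 smallest p in their list, the 5 most like Gucy1a1 by each measure, and the brightest gene of each marker list. Foxp3, Cd3d, Cd3g, Zap70, Klrd1, Ncr1, Klrb1c, Klre1, Gp9, Pf4, Ppbp, Clec1b, Itga2b, Gp6, Treml1, Tubb1, Myh11, Pdgfrb, Nos2, Nos3, Cyb5r3, Hsp90aa1, Prkg2, Gtf2i, Zyx, Rhoa, Pde2a and the neighbours were added for their role or position after values were seen. The alternatives were other probe set, dim gene, scaling, prior and weighting choices, blocks for the replicate number and for the run of codes, marker covariates, and arrays left out. No pairing of the samples by replicate number is stated. Deviations of same-numbered arrays correlated at -0.079 to 0.102 over genes, which cannot settle whether samples were paired. The code was tested on simulated data. Sequences came from RefSeq, GRCm38.p6. The number of arrays limits the precision.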

Additional observations from a re-analysis of the deposited data

Results flagged for a closer look

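Among 70 sets of 5 arrays examined (the 5 genes, Stk11, named pathway genes and marker list means in each group), 4 held an array far from the others by Dixon's criterion, which chance gives in about 1 of 20 sets. None of these was a group of the 5 genes. The highest Cnga2 value of the LKB1-deficient group was 3.55, on array 1, against 3.0 for the next. The Treg defining list mean was lowest on LKB1-deficient array 1, at 9.43, against 10.36 for the next, and Gucy1a1 was highest of its group on that array, at 5.43. Without it Gucy1a1 differed by -1.99 from WT. The erythroid list mean was highest on WT array 5, at 5.08 against 5.00 for the next, and on LKB1-deficient array 4, at 5.33 against 5.08.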

How the results depend on the processing

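Gucy1a1 and Gucy1b1 stayed negative in all alternatives, 23 for Gucy1a1 (-2.17 to -1.71) and 22 for Gucy1b1 (-0.67 to -0.52), which non-overlapping groups make likely and which adds no support. Pde5a stayed positive in 22 (0.11 to 0.43). Gucy1a2 was negative in 3 of 22 (-0.06 to 0.11) and Prkg1 in 7 of 22 (-0.14 to 0.27). The shifts beyond the spread between replicates were those of the second run alone, -2.17 for Gucy1a1 and 0.27 for Prkg1. With 1 array left out, Gucy1a1 ran from -1.99 to -1.84, Gucy1b1 from -0.65 to -0.52, Gucy1a2 from -0.01 to 0.09, Prkg1 from -0.06 to 0.09 and Pde5a from 0.17 to 0.32. With the replicate number as a block the SE of Gucy1a1 was 0.16 and its difference -1.89.

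The 78 pathway genes had 1 higher and 1 lower. With 1 array left out there were 1 to 2 higher and 0 to 1 lower. There were 2 higher with the mean of all probe sets, a trended robust prior, array quality weights, a repeated quantile normalization, the run of codes as a block and the second run alone, 3 with the dimmest 40% of genes removed, and 0 in the first run alone (4 higher and 2 lower at an unadjusted p under 0.05). There were 0 lower with a second quantile normalization, no variance moderation, the replicate number as a block, the run of codes as a block, either run alone, the covariates, no LKB1-deficient arrays 1, 4 and 5, or an adjusted p under 0.01. No within-group pair passed in any alternative (0 of 15), including leaving out each array, which was chosen after seeing the data. With deviations within group and run of codes, no pair could have passed alone, because few arrangements exist.

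Over all genes 52 were higher and 184 lower, and with 1 array left out 8 to 180 and 30 to 340. There were 79 higher and 307 lower with a trended robust prior, 17 higher without moderation, 135 and 329 with array weights, 14 and 36 with the replicate block, 0 and 0 in the first run alone, where limma had 3 arrays a group and 869 higher and 1378 lower at an unadjusted p under 0.05, and 423 and 46 in the second. There were 117 higher with the covariates, 154 without LKB1-deficient arrays 1, 4 and 5, and 5 higher and 20 lower at an adjusted p under 0.01. There were 284 lower with the dimmest genes removed, 285 with array medians subtracted and 103 after a second quantile normalization. The causes of these shifts were not tested.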
